A study of Mus musculus with 2 samples.

Results

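The Schwann cell and nerve genes described here are Mbp, Pmp22, Sox10, Ngfr, Cdh19, L1cam, Ncam1 and Gfap, 8 of the 24346 genes measured in skin wounds of WT and PU.1-/- mice. They were chosen by symbol as myelin proteins (Mbp, Pmp22), Schwann cell regulators (Sox10, Ngfr), neural adhesion molecules (Cdh19, L1cam, Ncam1) and a glial filament protein (Gfap). Ncam1 was picked for its higher value in the PU.1-/- wound in these same libraries, so its difference between the genotypes is given as a description only. All 8 genes were found in both libraries, and all passed a floor of 0.1 FPKM (fragments divided by transcript length and by library depth, a level that can be compared between genes).

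The study used bulk mRNA sequencing of wounds to find genes related to inflammation in the neonate. Pups 1 day old received 1-cm full-thickness wounds in the dorsal skin, and the wounds were collected 24 h later. The methods call these wounds incisional, whereas the series record calls them excisional. The WT group (strain C57BL/6J) and the PU.1_KO group (PU.1-/-, same strain label) were littermates with the same wound and harvest time, and each group is 1 library. PU.1-/- mice lack a functional Spi1, the gene of the transcription factor PU.1, and are described in the study as lacking macrophages, neutrophils, mast cells and T cells. The number of pups behind each library is not stated. With 1 library per genotype no difference has a replicate check, no test between genotypes was possible, and the 95% intervals below cover the error of counting reads only.

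Schwann cells are the glia of peripheral nerve, and skin holds both the myelinating kind and the non-myelinating kind that ensheathes fine axons. After a nerve is cut, Schwann cells can lose their myelin program and return to an immature state with higher Ngfr, Ncam1, L1cam and Gfap. None of these genes belongs to Schwann cells alone: NCAM1 is also made by regenerating and fetal muscle, SOX10 by melanocytes, PMP22 by fibroblasts and epithelium, and NGFR by neurons and other cells of the skin.

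Sequences before the transcription starts of the genes are shown because their CpG content differs between the genes and because the motif of PU.1, the factor missing in 1 of the groups, can be looked for in them. They come from RefSeq on GRCm38.p6 and were examined for 4 of the 8 genes (Pmp22, Ngfr, Gfap and L1cam). Each sequence is the 250 bases before a start, 5′ to 3′ on the strand of the gene. Pmp22 has several alternative starts, and its FPKM is a single value for the gene over all of them. The outermost start follows chr11:63128732-63128981 and an inner one follows chr11:63132319-63132568, both on the plus strand. The Gfap sequence is chr11:102897201-102897450 and that of the upstream start of L1cam is chrX:73880835-73881084, both on the minus strand. In Pmp22 and Gfap the capitals mark CpG dinucleotides. In L1cam they mark the core of the PU.1 motif, GAGGAAG or its reverse complement CTTCCTC.
Pmp22 outer start: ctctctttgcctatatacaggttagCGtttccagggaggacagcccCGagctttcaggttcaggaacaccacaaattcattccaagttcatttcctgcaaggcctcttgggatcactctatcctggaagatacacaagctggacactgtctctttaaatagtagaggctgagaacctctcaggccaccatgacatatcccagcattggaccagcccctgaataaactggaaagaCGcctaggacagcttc
Pmp22 inner start: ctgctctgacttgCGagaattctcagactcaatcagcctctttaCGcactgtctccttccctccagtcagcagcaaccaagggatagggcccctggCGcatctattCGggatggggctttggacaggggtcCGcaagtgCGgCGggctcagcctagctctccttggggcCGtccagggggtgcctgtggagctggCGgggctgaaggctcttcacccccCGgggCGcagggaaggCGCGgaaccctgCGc
Gfap: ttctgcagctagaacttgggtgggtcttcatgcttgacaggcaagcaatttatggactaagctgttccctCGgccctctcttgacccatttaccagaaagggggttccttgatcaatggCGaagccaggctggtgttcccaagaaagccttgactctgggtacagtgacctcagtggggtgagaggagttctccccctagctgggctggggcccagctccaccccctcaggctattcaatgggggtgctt
L1cam upstream start: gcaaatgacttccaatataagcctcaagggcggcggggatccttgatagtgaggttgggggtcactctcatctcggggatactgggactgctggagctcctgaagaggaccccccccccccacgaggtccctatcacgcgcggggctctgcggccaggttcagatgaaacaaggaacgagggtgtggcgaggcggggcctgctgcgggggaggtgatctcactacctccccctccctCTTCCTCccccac

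The sequence before the outer Pmp22 start held 3 CpG and 48.8% GC, and the one before the inner start held 14 CpG and 64.8% GC. The Gfap sequence held 2 CpG and 55.6% GC, and that of L1cam 12 CpG and 63.2% GC. The Ngfr sequence, not printed, held 16 CpG and 70.4% GC. Over the same 250 bases of 32851 mouse promoters, the median was 6 CpG (quartiles 2 and 16) and 52.4% GC. The PU.1 core was found before both L1cam starts, whose windows overlap, and on neither strand before any start of Pmp22, Ngfr or Gfap, and 10.6% of all promoters held it on 1 or both strands. A SOX site, spelled NACAAN with A or T for each N, was in none of the sequences of the 4 genes, and 35% of all promoters held one on 1 or both strands. A TATA box, spelled TATAAA, was likewise in none, against 12.4% of all promoters. These letters are matches in a window and no measure of binding.

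Of the libraries as a whole, an estimated 1.38e+07 fragments lay behind the WT library and 1.59e+07 behind the PU.1-/- library. Spi1 had 35.4 FPKM in WT against 1.45 FPKM in PU.1-/-, 24.3-fold lower. The libraries also differed in sex-linked genes, which the labels do not mention. Xist, made from the inactive X chromosome, had 9.48 FPKM in the PU.1-/- library and was listed at 0 in WT, whereas the Y-linked Ddx3y had 21.0 FPKM in WT and was listed at 0 in PU.1-/-. Genotype and sex can therefore not be told apart in any difference below. L1cam is X-linked, as are Gjb1 and Drp2 among the myelin genes.

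The 8 genes covered a wide range of levels. In the WT wound the order was Pmp22, Mbp, Sox10, Ncam1, Ngfr, L1cam, Cdh19 and Gfap, from 67.9 to 0.175 FPKM. In the PU.1-/- wound Ncam1 moved from place 4 to place 2, ahead of Mbp and Sox10, and Cdh19 passed L1cam. Some neighbours in these orders had counting intervals that overlapped. In the WT wound these were Sox10 (6.38 to 8.20 FPKM) with Ncam1 (5.60 to 6.69 FPKM), and L1cam (1.29 to 1.89 FPKM) with Cdh19 (0.918 to 1.64 FPKM). In the PU.1-/- wound they were Ncam1 (11.6 to 13.01 FPKM) with Mbp (10.8 to 12.4 FPKM). Pmp22 stood far above the other genes and Gfap far below them in both libraries.

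**Figure D1:**
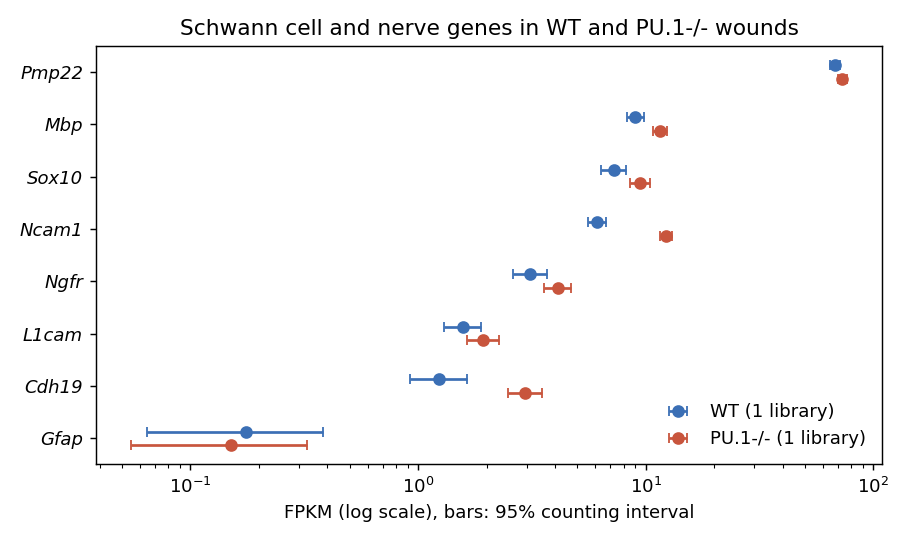
Level of each gene in FPKM on a log axis in the WT and the PU.1-/- library, 1 point per library, with bars for the 95% counting interval from estimated reads. The bars of Ncam1 and Cdh19 lie apart between the libraries, at 6.13 against 12.3 FPKM and 1.24 against 2.95 FPKM. Those of Mbp and Sox10 also lie apart, at 9.02 against 11.6 FPKM and 7.25 against 9.44 FPKM. The bars of Gfap overlap almost fully.

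Differences of 2-fold were few. A gene was counted as higher or lower when its FPKM differed by a ratio of at least 2, with values below 0.1 FPKM raised to 0.1. Cdh19 and Ncam1 were higher in the PU.1-/- wound by this rule, 2 of the 8 genes, and 0 were lower. Of 16298 genes that reached 0.1 FPKM in either library, 3.47% were higher and 6.49% lower by the same rule, and of 13237 genes with at least 1 FPKM, 1.71% were higher. Ncam1 was chosen on this contrast, so nothing is read from its place among the 2. It also lay just inside the ratio of 2, at 2.003, and the nearest gene outside it was Ngfr at 1.32. Of the 6 other genes, 5 had a smaller ratio above 1. With Cdh19 and without Ncam1, 6 of 7 genes had a ratio above 1. The share was 49.0% of the genes with at least 0.1 FPKM and 49.3% of those with at least 1 FPKM. Ncam1 would make it 7 of the 8, but its direction was fixed by its choice. The counting interval of L1cam held 1, as did those of Mbp and Pmp22 with their shortest transcripts. The median log2 ratio of the 8 genes was 0.37 (0.36 without Ncam1), and that of all genes with at least 0.1 FPKM was -0.01. In bulk tissue, more cells of a type and more RNA per cell cannot be told apart.

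**Figure D2:**
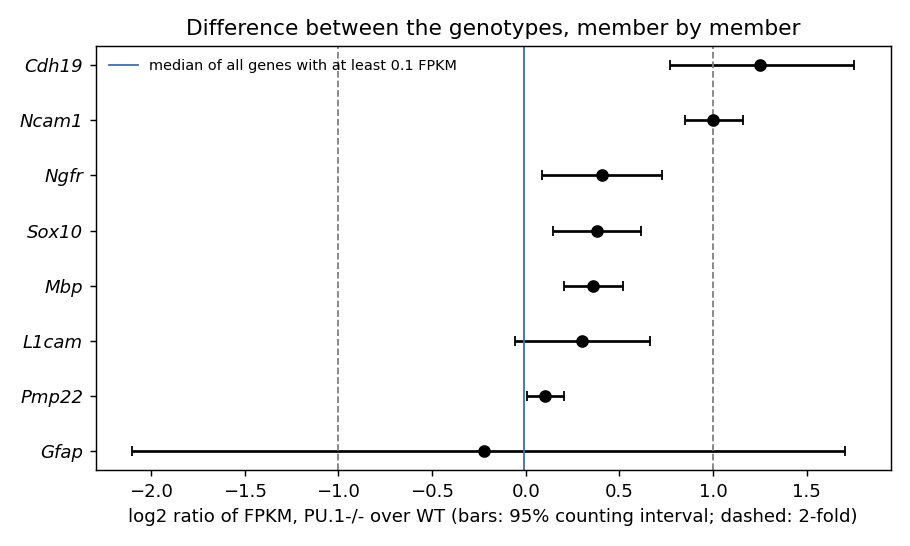
Log2 ratio of FPKM, PU.1-/- over WT, for each gene, with bars for the 95% counting interval, dashed lines at a ratio of 2 either way and a solid line at the median of all genes with at least 0.1 FPKM. Cdh19 (1.25) and Ncam1 (1.002) lie at or past the upper dashed line, 5 genes lie between 0.10 and 0.41, and Gfap lies at -0.22 with an interval that spans both dashed lines.

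Among the myelin proteins, Mbp and Pmp22 differed little. Mbp, the basic protein that compacts the cytoplasmic faces of myelin, had 9.02 FPKM in WT against 11.6 FPKM in PU.1-/-. Its ratio of 1.28 had a counting interval of 1.15 to 1.43 on 574 and 847 estimated reads, but with the shortest of its transcripts as the length the interval was 0.899 to 1.84. The difference in Mbp is thus not separable from counting error under every transcript length. Pmp22, a membrane protein of compact myelin that many other cells also make, had 67.9 and 73.0 FPKM, a ratio of 1.08 (1.005 to 1.15). With its shortest transcript as the length the interval was 0.952 to 1.21 and held 1. It lies on chromosome 11 at 63128982 to 63159547 (GRCm38). Pmp22 alone made up most of the summed FPKM of the 8 genes, which was 96.4 in the WT wound against 115 in that of PU.1-/-. Without Pmp22 and Ncam1 the sums were 22.4 and 30.2 FPKM, a ratio of 1.35.

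The other genes of myelin structure went both ways. Of 17 listed genes 16 had at least 0.1 FPKM, and of these 0 were higher and 2 were lower 2-fold, with a median log2 ratio of 0.24 (0.30 without Mbp and Pmp22). Gjb1, the gap junction protein connexin 32, had 12.3 FPKM in WT against 17.0 FPKM in PU.1-/-, with a ratio of 1.39 (1.18 to 1.64). Fa2h, which makes the hydroxylated fatty acids of myelin lipids and is also active in epidermis, had 13.6 and 10.03 FPKM. The genes that were 2-fold lower were Ncmap, a small membrane protein of non-compact myelin, at 1.34 and 0.579 FPKM (ratio 0.433, 0.234 to 0.829), and Pmp2, a fatty acid binding protein of myelin, at 0.250 and 0.0545 FPKM on about 4 reads and 1 read.

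The regulators Sox10 and Ngfr had nearly the same ratio. Sox10, the transcription factor required for the Schwann cell lineage, had 7.25 FPKM in WT against 9.44 FPKM in PU.1-/-. Its values matched 252 and 377 whole reads, which gave a ratio of 1.30 (1.11 to 1.53). Ngfr, the low-affinity neurotrophin receptor p75, had 3.11 and 4.12 FPKM, a ratio of 1.32 (1.06 to 1.65) on 138 and 210 reads. Both intervals excluded 1 and both excluded 2. Sox10 lies on chromosome 15 at 79154913 to 79164490 and Ngfr on chromosome 11 at 95568818 to 95587698. Ngfr per unit of Sox10 was 0.429 in the WT wound against 0.436 in that of PU.1-/-, and Mbp per unit of Sox10 was 1.24 and 1.23, so these 3 genes kept their proportions between the libraries.

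Other transcription factors of the lineage were counted from a list of 14, of which 13 had at least 0.1 FPKM. None of the 13 was higher or lower 2-fold, and their median log2 ratio was 0.19. The most abundant were not specific to Schwann cells. Id2, an inhibitor of differentiation found in many cell types, had 61.2 and 36.8 FPKM, a ratio of 0.601. Jun, the factor that drives the repair state of Schwann cells after nerve injury and is induced in most wounded tissue, had 35.5 and 38.8 FPKM. Tfap2a, of neural crest and epidermis, had 24.7 and 29.2 FPKM. Egr2, which switches on the myelin genes and was named after its values were seen, had 6.67 and 7.19 FPKM, a ratio of 1.08 (0.912 to 1.28).

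The adhesion molecules held both genes past a ratio of 2. Their summed level was 8.94 FPKM in WT against 17.2 FPKM in PU.1-/-, but most of it was Ncam1, which was chosen for its difference. Without Ncam1 the sums were 2.81 and 4.89 FPKM, a ratio of 1.74. The ratio of the sum was 1.31 for the regulators and 1.10 for the myelin proteins. The 1.74 came mostly from Cdh19, since L1cam alone had a ratio of 1.23. Pmp22 made up most of the myelin sum, and Mbp alone had a ratio of 1.28. These sums therefore do not rank the classes. Cdh19, a cadherin of Schwann cell precursors and mature Schwann cells, had 1.24 FPKM in WT against 2.95 FPKM in PU.1-/-. Its ratio was 2.38, with a counting interval of 1.70 to 3.37 on 49 and 134 whole reads. An estimate from transcript length put the reads at 64 and 175 and the interval at 1.78 to 3.22. Under both estimates the interval lay above 1 and held 2, so Cdh19 was higher beyond counting error, although a ratio below 2 was within it. Cdh19 lies on chromosome 1 at 110888002 to 110977601. Its log2 ratio of 1.25 was at percentile 99.2 of the 13237 genes with at least 1 FPKM.

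Ncam1, the neural cell adhesion molecule, had 6.13 FPKM in WT against 12.3 FPKM in PU.1-/-. The ratio of 2.003 that led to its choice had a counting interval of 1.802 to 2.23 on 496 and 1142 estimated reads. With the shortest of its 3 transcripts as the length the interval was 1.69 to 2.37. Ncam1 lies on chromosome 9 at 49502129 to 49799393. L1cam, an adhesion molecule of axons and non-myelinating Schwann cells, had 1.57 and 1.94 FPKM, a ratio of 1.23 whose interval of 0.960 to 1.58 held 1. It lies on chromosome X at 73853778 to 73880838. A difference in L1cam was therefore not detectable at this depth.

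Levels were also taken relative to Sox10, as a measure within each library. They were higher in the PU.1-/- library for Ncam1 and Cdh19, lower for Pmp22 and close to equal for Mbp. Ncam1 per unit of Sox10 was 0.845 in the WT wound against 1.30 in that of PU.1-/-, and Cdh19 per unit of Sox10 was 0.171 and 0.313. Pmp22 per unit of Sox10 was 9.36 and 7.73. These ratios within a library do not depend on how the libraries are scaled against each other.

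The wider list of neural adhesion molecules held 16 genes, all with at least 0.1 FPKM. Of these, 4 were higher 2-fold (Ncam1, Cdh19, Ncam2 and Negr1), 1 was lower (Cntn2), and 13 had a ratio above 1. The median log2 ratio was 0.30, and 0.29 over the 13 genes outside the 8. Ncam2 and Negr1, adhesion molecules of the nervous system, were near the floor. Ncam2 had 0.0922 and 0.218 FPKM and Negr1 had 0.141 and 0.306 FPKM, and both counting intervals held 1. Cntn2, an adhesion molecule of axons, had 0.586 and 0.188 FPKM, a ratio of 0.321 (0.185 to 0.537). The most abundant genes of the list were Alcam at 16.8 and 18.8 FPKM, Cadm1 at 11.8 and 14.4 FPKM, and Cadm4, an adhesion molecule by which Schwann cells contact axons, at 11.3 and 14.9 FPKM. Their ratios were 1.12, 1.22 and 1.33, all above 1 beyond counting error and below 2. Of the enzymes that add polysialic acid to NCAM1, St8sia2 had 0.947 and 1.15 FPKM and St8sia4 had 1.57 and 1.62 FPKM, and the intervals of both ratios held 1.

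Gfap, the intermediate filament protein of astrocytes and of non-myelinating Schwann cells, was close to the limit of detection. It had 0.175 FPKM in WT against 0.150 FPKM in PU.1-/-, on about 6 reads in each library. The ratio of 0.856 had an interval of 0.233 to 3.26, so that no difference of 2-fold in either direction could be told from none. Gfap lies on chromosome 11 at 102887336 to 102897200. Most of its counterparts among the markers of immature and non-myelinating Schwann cells were measured more firmly. Of 16 such genes 15 had at least 0.1 FPKM, of which 2 (Cdh19 and Ncam1) were higher 2-fold, 1 (Fabp7) was lower and 12 had a ratio above 1. Erbb3, the neuregulin receptor of Schwann cells that epithelium and melanocytes also carry, had 33.3 and 43.6 FPKM, a ratio of 1.31 (1.25 to 1.37). Gap43, a growth cone protein also made by Schwann cells, had 21.2 and 26.4 FPKM, a ratio of 1.24 (1.08 to 1.43). Fabp7, a fatty acid binding protein of immature glia, had 1.18 and 0.229 FPKM on about 10 and 2 reads, a ratio of 0.193 (0.0186 to 0.817). The median log2 ratio of the 9 measured genes outside the 8 was 0.35.

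Ligands and receptors that act on Schwann cells and axons showed no shared direction. Among the neurotrophins and their receptors 8 of 9 genes were measured, 0 were higher or lower 2-fold, and 4 had a ratio above 1. The receptors Sort1 and Ntrk2 had 16.3 and 15.9 FPKM and 4.84 and 4.81 FPKM. In neuregulin signalling, 4 of 5 genes were measured, 0 were higher and 1 was lower 2-fold. The lower gene was Nrg2, with 0.467 and 0.0957 FPKM on about 18 and 4 reads. Nrg1, the axonal signal for myelination, which other tissues also make, had 3.50 and 2.15 FPKM, a ratio of 0.615 (0.506 to 0.749). Erbb2, the partner of ERBB3, had 26.1 and 26.5 FPKM. All 7 genes of the GDNF family were measured and 0 differed 2-fold, with 5 at a ratio above 1 and 2 below. Gdnf itself had 1.31 and 2.25 FPKM, a ratio of 1.72 (1.26 to 2.36). The receptor Ret had 1.86 and 0.995 FPKM, a ratio of 0.536 (0.402 to 0.709). The ligand Nrtn had 29.6 and 30.7 FPKM, and of the receptors Gfra1 had 26.1 and 32.0 FPKM, and Gfra2 had 4.63 and 5.33 FPKM.

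The cell bodies of skin nerves lie outside the skin, and the neurofilament and synaptic genes were low in both libraries. Of 11 genes 8 had at least 0.1 FPKM, of which 1 was higher and 1 was lower 2-fold. The higher gene was the neurofilament Nefm, at 0.0954 and 0.228 FPKM on about 4 and 11 reads. Tubb3, a neuronal tubulin that other dividing and migrating cells can make, had 19.6 and 9.38 FPKM, a ratio of 0.478 (0.407 to 0.559). Uchl1, a neuronal ubiquitin hydrolase, had 18.1 and 23.8 FPKM. Gap43, given above with a ratio of 1.24, was the most abundant of the list. In all, 7 of the 8 had a ratio above 1, and the median log2 ratio was 0.49, although several of the 8 rested on few reads. Of the 8 genes of the nerve sheath, 1 was higher 2-fold and the median log2 ratio was 0.19. The higher gene was Apod, a lipid carrier of endoneurial fibroblasts that other fibroblasts also make, at 32.1 and 87.4 FPKM, a ratio of 2.72 (2.52 to 2.95). Slc2a1, Cldn1 and Itga6, which perineurium shares with epidermis, had ratios of 1.17, 1.04 and 1.09.

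Other cell types in the wound can express some of the 8 genes, and most listed genes of skeletal muscle were also higher in the PU.1-/- wound. Of 13 listed genes of immature muscle 11 were found, and 8 were higher 2-fold in the PU.1-/- wound, 0 were lower, and all 11 had a ratio above 1, with a median log2 ratio of 1.07. Their summed level was 760 FPKM in WT against 1465 FPKM in PU.1-/-. Myog, the factor of muscle differentiation, had 22.1 and 66.6 FPKM, and Cdh15, the cadherin of muscle precursors, had 16.4 and 35.7 FPKM. The acetylcholine receptor subunits of immature and denervated muscle were higher as well: Chrna1 had 6.23 and 15.3 FPKM, Chrnd 3.37 and 10.4 FPKM and Chrng 1.39 and 4.91 FPKM. Myod1, a determination factor, had 1.84 and 3.86 FPKM. Pax7, a marker of muscle stem cells named after its values were seen, had 0.443 and 0.493 FPKM. Of 8 genes of mature muscle 2 were higher 2-fold, with a median of 0.67. Of the 127 genes in all lists with at least 1 FPKM, those whose log2 ratio lay nearest to that of Ncam1 were Myh8 (1.01), Myh3 (1.04) and Vwf (1.06), the first 2 being the perinatal and embryonic myosins. Ncam1 was chosen for its rise in these same 2 libraries, so the genes nearest to it are by construction genes about 2-fold higher. Nothing is therefore read from this nearness. Ncam1 per unit of Myog was 0.277 in the WT wound against 0.184 in that of PU.1-/-, and Ncam1 per unit of Cdh15 was 0.373 and 0.343. The part of muscle in the difference of Ncam1 was not tested.

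**Figure D3:**
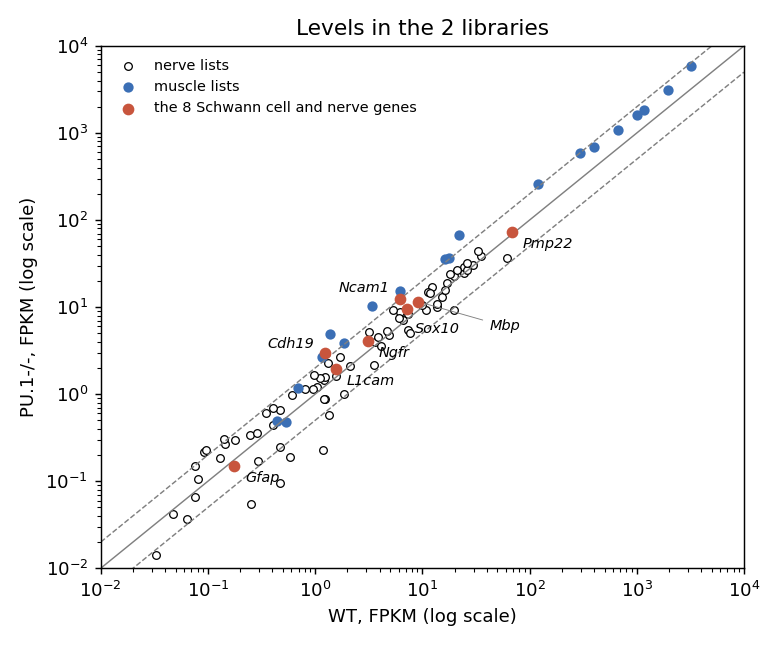
FPKM in the PU.1-/- library against FPKM in the WT library on log axes, with 1 point per gene, for the 8 genes, the other genes of the nerve lists and the genes of the muscle lists listed above 0 in both. The solid line marks equal levels and the dashed lines a ratio of 2, and Ncam1 and Cdh19 lie on or above the upper dashed line with most genes of immature muscle.

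Melanocytes share Sox10 with Schwann cells, since both come from the neural crest. All 8 melanocyte genes were measured, 0 were higher or lower 2-fold, and the median log2 ratio was 0.04, with summed levels of 252 and 264 FPKM. Dct, an enzyme of pigment synthesis, had 86.2 and 98.4 FPKM, and Dct per unit of Sox10 was 11.9 and 10.4. Pmel and Mlana, proteins of the pigment granule, had 49.6 and 55.3 FPKM and 44.0 and 49.0 FPKM. All 3 levels were several times that of Sox10. The melanocyte genes went both ways, 5 with a ratio above 1 and 3 below. Kit had 8.08 and 5.77 FPKM, a ratio of 0.714 (0.631 to 0.810), and Ednrb 27.9 and 19.8 FPKM, a ratio of 0.710 (0.659 to 0.767). The part of melanocytes in the level of Sox10 was not tested.

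Other resident cells of the skin had medians above 0 as well. The median log2 ratio was 0.22 for 10 fibroblast genes, 0.15 for 10 endothelial genes and 0.16 for 9 keratinocyte genes, and of these 29 genes only Vwf was higher 2-fold, at 2.82 and 5.90 FPKM, with 0 lower. Dcn and Col3a1 of fibroblasts had ratios of 1.39 and 1.07, and Krt14 of basal keratinocytes had a ratio of 1.12. Of the 10 fibroblast genes, 8 had a ratio above 1 and 2 below. The 2 were Vim, at a ratio of 0.766 (0.753 to 0.780), and Fbn1, at 0.734 (0.702 to 0.766). Ratios between 1 and 1.4, the range of Mbp, Pmp22, Sox10, Ngfr and L1cam, were thus also found among genes of other resident cells. Blood cell genes went the other way. All 10 macrophage genes were lower 2-fold, with summed levels of 835 and 5.74 FPKM. Of 7 T cell genes measured 5 were lower 2-fold, and Cd8a was listed at 0 in both libraries. FPKM is relative to the library total, and other scalings changed the ratios little. When the median of the 6538 genes at or above 10 FPKM in each library was set to 0, this moved Ncam1 to a ratio of 2.01 and Cdh19 to 2.39.

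**Figure D4:**
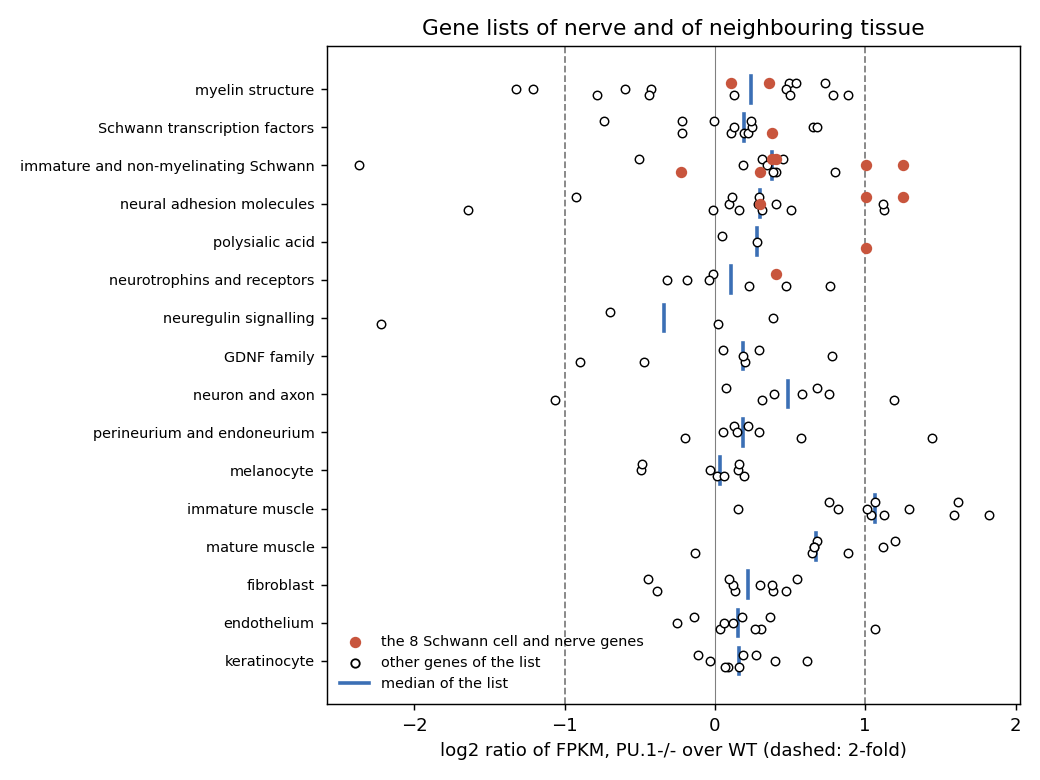
Log2 ratio of FPKM, PU.1-/- over WT, for each gene of 16 lists that reached 0.1 FPKM in either library, filled where the gene is 1 of the 8 and open otherwise, with a bar at the median of each list and dashed lines at a ratio of 2. Medians of the nerve lists lie between -0.34 and 0.49, those of immature and mature muscle at 1.07 and 0.67.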

How the data were processed

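Skin wounds of 1 WT and 1 PU.1-/- library were compared. Per the labels, RNA was made into stranded mRNA libraries. The study's methods give single-end reads of 75 bases, CASAVA 1.8.2, the mm10 genome and Cuffnorm 2.2.1, and the submitters' processing notes name TopHat2 2.1.1, Bowtie2 2.2.8, SAMtools 0.1.18 and Cuffdiff 2.2.1. The authors deposited FPKM values per gene symbol. The annotation is not given in the sources used here.

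Values below 0.1 FPKM were raised to 0.1 and the ratio of the libraries was taken. Read numbers were estimated from the FPKM values, because low genes move in whole-read steps: 426 of 4542 genes below 2 FPKM had WT values 1.15 times those of PU.1-/-, the ratio of equal read numbers, within a relative 1.5e-05. Depth was estimated from GENCODE M21 transcript lengths less 200 nt, using 463 of 2674 genes. For members with 1 transcript, whole read numbers were used where a pair of them matched both values. The multiple of the pair nearest to the estimate from length was taken. For the other members and all other genes, length and depth gave the reads of the longest transcript that GENCODE links to RefSeq. Intervals are exact at 95% (Clopper-Pearson for ratios, Poisson for levels), cover counting error only, and are too narrow if the authors counted over shorter transcripts. Positions of genes were read from RefSeq (GRCm38). Scripts were tested on simulated data.

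The members and lists were chosen with earlier results of these data known. The genes named are the 8 members, Spi1, in each other list the 3 highest in the WT library, those with at least 1 FPKM that differed 2-fold and those at 0 in both, and the 3 nearest to Ncam1 in log2 ratio. Where a list's rule named more genes than are printed, the rest are given by counts or are not reported here. Egr2, Pax7, Pmp2, Ncam2, Negr1, Cntn2, Nrg2, Nefm, Drp2, Fbn1, Kit, Ednrb, Gdnf, Ret, Xist and Ddx3y are outside the rule and were chosen after their values were seen. Alternatives changed the floor, an added constant, the filter, the scaling and the fold. The scripts ran in Python 3.11.15 with scipy 1.17.1, numpy 2.4.6, matplotlib 3.10.9 and pandas 2.3.3.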

Additional observations from a re-analysis of the deposited data

How the results depend on the processing

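With 1 library per genotype there is no replicate error, and the estimated depth limits low genes such as Gfap. No paired analysis was possible because each genotype has 1 library. Over the members, 73 of 76 recomputed values stayed within the counting interval or the set tolerance. The tally is a weak check, since an interval as wide as that of Gfap left little room to move. Cdh19 at a ratio of 1.76, with 1 FPKM added, still counted as within its interval. The log2 ratio of Gfap went from -0.22 to 0 with values below 1 FPKM raised to 1. The number of members higher 2-fold was 1 with 0.1 FPKM added to every value, when the ratio of Ncam1 was 1.99. It was 0 with 1 FPKM added, when Ncam1 had 1.86 and Cdh19 1.76, and 0 where a ratio of at least 3 was asked. With both libraries scaled to the same FPKM sum, Ncam1 had a ratio of 2.07 and Cdh19 2.46. Over the other lists, 438 of 504 values stayed within tolerance. The median of neuregulin signalling went from -0.34 to 0.01 with values below 1 FPKM raised to 1, to 0.02 with genes of at least 1 FPKM kept and to 0 without a filter. That of the neurotrophins and their receptors went from 0.11 to -0.01 under the first 2 of these and to 0 without a filter, and that of myelin structure from 0.24 to 0 under the first. The 2-fold higher count of neural adhesion molecules was 2 when only genes with at least 1 FPKM were kept.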
